A study of Mus musculus with 10 samples.

Results

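The 10 genes described here code for gut hormones, for an enzyme that makes a hormone, and for granins: Chga, Chgb, Tac1, Tph1, Cck, Gip, Ghrl, Sct, Gcg and Sst. They were found by gene symbol in the table of each plate and are 10 of the 18022 genes listed over 10 plates of small-intestinal crypt cells from C57Bl/6 mice. The 3 picked plates (experiment codes JC68, JC71 and JC72) held doublets or triplets of cells that were mouth-pipetted after a milder dissociation. The 7 sorted plates held single cells: 2 with the code GK5b, ending in G and in L, and 5 with the code GK5a-M2. Wells with at least 1000 transcripts of mouse genes were used, which gave 501 picked, 525 GK5b and 1090 GK5a wells, 2116 in all. A transcript here is a molecule counted by its random barcode in CEL-seq2, a method that primes on the poly(A) tail. The sources used here name no age, treatment or sorting markers.

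Enteroendocrine cells are the scattered hormone-producing cells of the gut lining. They store peptides or serotonin in dense granules, whose matrix is built partly from granins, and release them into blood and tissue when nutrients or other stimuli reach them. Individual cells make combinations of hormones: enterochromaffin cells make serotonin and often the tachykinin substance P, whereas other cells make the incretin GIP, cholecystokinin, ghrelin, secretin, glucagon-like peptides or somatostatin. They share prohormone-processing enzymes and transcription factors of their lineage.

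The used wells held 821829 to 1232614 transcripts per picked plate, 4414455 to 4832581 per GK5b plate and 1022859 to 2359894 per GK5a plate. The median per well ranged over plates from 2756 to 7235 in picked, 13944 to 16427 in GK5b and 3361 to 7871 in GK5a plates, so a fixed number of transcripts is reached more easily in GK5b wells. Xist, an RNA made in female cells, was at 115 to 155 CPM (transcripts per 1000000 transcripts) in the picked plates and at 0.0 to 0.98 CPM in the sorted plates. Experiment code and sex of the mice thus ran with the group, and their parts in a difference between picked and sorted plates cannot be told apart. Which plates share an animal is not in the labels. The p-values therefore rest on plate-to-plate spread, which may be technical.

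A well was counted as a carrier of a gene when it held at least 10 of its transcripts. In 123 of the 2116 wells (5.81%) at least 1 of the 10 genes reached this level. The genes had 26684 transcripts together, 0.121% of all transcripts in used wells, and 90.8% of them lay in the carrier wells. The 10 wells with the most held 47.2%. A single gene reached 10 transcripts in 74 carriers, 2 genes did so in 30, 3 in 7, 4 in 9 and 5 in 3. A picked well holds a doublet or triplet, so genes that share a picked well may come from different cells.

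**Figure D1:**
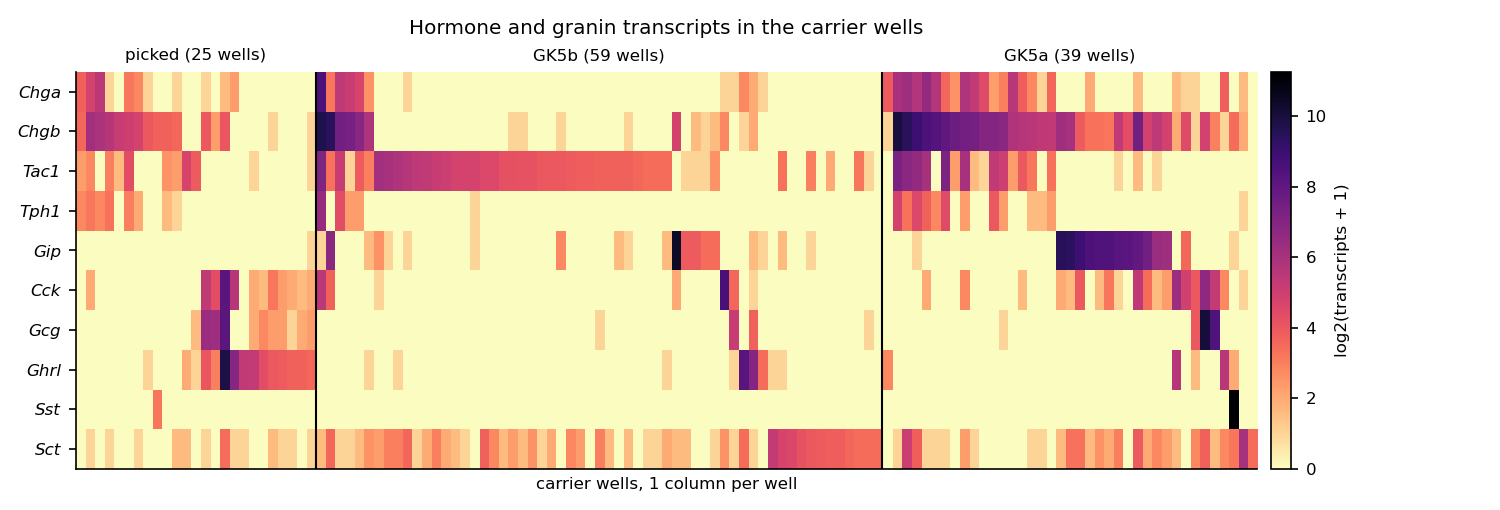
Transcripts of the 10 genes in the 123 carrier wells, 1 column per well, coloured by log2(transcripts + 1) and grouped into picked (25 wells), GK5b (59 wells) and GK5a (39 wells). Within a group, wells are ordered by the gene with the most transcripts; the wide Tac1 and Sct blocks without Chgb are in GK5b, and the Gip block with Chgb in GK5a.

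The granins shared wells with each other and with most of the hormones. Chga (chr12:102554969-102565028, plus strand, GRCm38) codes for chromogranin A, and Chgb (chr2:132781278-132795079, plus strand) for chromogranin B. Of the 21 Chga carriers, 19 were also Chgb carriers, and all 21 held at least 1 Chgb transcript, against 207 of the 2095 wells below 10 Chga transcripts (9.88%). Among sorted wells alone, 16 of the 18 Chga carriers were also Chgb carriers. Chgb had 49 carriers, 11 of which carried Chgb alone, and 96.6% of its 7495 transcripts lay in carrier wells. The well with the most Chgb, in GK5a plate 3, held 995 Chgb, 62.5 Chga, 154 Tac1 and 27.1 Tph1 transcripts. In GK5b plate 2 a well held 860 Chgb, 376 Chga, 141 Tac1 and 85.9 Tph1 transcripts. Among picked wells the highest Chgb count was 71.6 transcripts.

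Both granin genes have the cyclic AMP response element (Chgb) or a match that differs from it by 1 letter (Chga) before their RefSeq start. This motif is bound by factors of the CREB family. The full element also stands before the RefSeq start of Sst, whose single carrier well held 10.0 Chgb transcripts, the carrier limit, and no Chga. Tph1 and Gip had no match, and 7 of 7 Tph1 carriers and 12 of 19 Gip carriers were Chgb carriers. The motif searched was TGACGTNA on both strands, in the 100 bases before each RefSeq start (GRCm38.p6). All 10 genes had a window, 14 windows in all, and 3 genes held a match. Among all 32851 such windows, 571 held it (1.74%). The sites are shown because Chga and Chgb shared wells, with the match in capitals and 30 bases in all, 5′ to 3′ on the strand of the gene. They lie at chr12:102554886-102554915 on the plus strand for Chga, chr2:132781559-132781588 on the plus strand for Chgb and chr16:23890874-23890903 on the minus strand for Sst, and begin their match 44, 72 and 48 bases before the RefSeq start.
Chga: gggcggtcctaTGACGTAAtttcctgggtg
Chgb: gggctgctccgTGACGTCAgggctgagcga
Sst: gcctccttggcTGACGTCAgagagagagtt
RefSeq and GENCODE, from which the gene positions here are taken, place these starts differently. The RefSeq start of Chgb (132781642) lies 364 bases inside the GENCODE gene and that of Sst (23890844) 114 bases inside, so both sites fall in the untranslated part of the first GENCODE exon, 281 and 55 bases past its start. The RefSeq start of Chga (102554941) lies before the GENCODE start, and its site is outside the gene in both. The shared letters are a description of these windows. The data hold no measurement of binding or of the start site.

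Tph1 was rare, and its carriers all carried Tac1, whereas most Tac1 carriers held no Tph1. Tph1 (chr7:46644641-46672537, minus strand) codes for tryptophan hydroxylase 1, the rate-limiting enzyme of serotonin synthesis outside the brain, and Tac1 (chr6:7554879-7565834, plus strand) codes for the precursor of substance P. Tph1 had only 297 transcripts and 7 carriers, 2 in GK5b and 5 in GK5a plates. All 7 were carriers of both Chgb and Tac1, and 6 of Chga. Of the 46 Tac1 carriers, 7 carried Tph1 and 13 held any. The Tph1 counts of the 7 carriers were 12.0, 15, 20, 21.1, 22.1, 27.1 and 85.9 transcripts. No picked well reached 10: the highest held 9.0 Tph1 beside 49.3 Chgb and 7.0 Tac1 transcripts, and another held 8.0 Tph1 beside 71.6 Chgb and 26.1 Chga.

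The Tac1 carriers fell into 2 sets of wells. The 13 Tac1 carriers that were also Chgb carriers (1 picked, 3 GK5b, 9 GK5a) had a median of 61.6 transcripts of 20 enteroendocrine transcription factor genes per 10000 transcripts and 8.06 of the goblet list, 10 genes of mucus-secreting cells. In the 33 without Chgb at that level (2 picked, 31 GK5b) these medians were 0.0 and 1298 per 10000. The goblet list ranged from 475 to 2501 per 10000 in those 33 wells and reached no more than 94.5 in the other 13. Tac1 made up 0.494 to 3.35% of the transcripts of a well in the 13, whose median total was 4285. In the 33 it made up 0.025 to 0.255%, with a median total of 23151. Of the 33, 31 carried Tac1 alone and 2, both in GK5b, carried Sct as well.

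Gip marked a further set of Chgb wells. Gip (chr11:96024545-96030831, plus strand) codes for glucose-dependent insulinotropic polypeptide, an incretin released after a meal. It had 19 carriers, 6 in GK5b and 13 in GK5a plates, and 12 of them also carried Chgb. None carried Chga, Tac1 or Tph1 at 10 transcripts, whereas 19 of the 49 Chgb carriers also carried Chga and 13 also carried Tac1. Gip carriers held up to 1332 Gip transcripts, which was 23.1% of all transcripts in that well of GK5b plate 2. In GK5a plate 4, 5 wells held 289, 344, 344, 480 and 675 Gip transcripts. The picked plates held 10.0 Gip transcripts in 501 wells and no carrier.

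Cck and Gcg were found together. Cck (chr9:121489824-121495694, minus strand) codes for cholecystokinin, which triggers bile and pancreatic enzyme release. Gcg (chr2:62474530-62483650, minus strand) codes for proglucagon, which the gut processes to glucagon-like peptides. Of the 8 Gcg carriers, 7 were Cck carriers and the eighth held 1.0 Cck transcript beside 125 of Ghrl. Cck had 16 carriers: 7 with Gcg, 5 with Gip, 4 with Ghrl and 9 with Chgb, with overlaps among these. Among sorted wells alone, 4 of the 5 Gcg carriers were Cck carriers. A single well of GK5a plate 5 held 1068 Gcg transcripts, 15.3% of its total and 52.0% of all Gcg transcripts in the series, with 104 Cck and 28.1 Chgb. A well of GK5a plate 2 held 338 Gcg and 37.2 Cck.

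Ghrl, Sct and Sst differed in how they were spread. Ghrl (chr6:113716119-113719880, minus strand) codes for ghrelin, a hormone that stimulates appetite. It had 16 carriers, 11 of them picked, 3 in GK5b and 2 in GK5a plates. A picked well of plate 1 held 915 Ghrl, 275 Cck and 273 Gcg transcripts in a total of 44248, and the other 7 Ghrl carriers of that plate held 11 to 37.2. Those 7 wells had 227 to 2930 transcripts per 10000 of Paneth genes, which mark antimicrobial cells of the crypt base. They also had 71.7 to 386 of the goblet list. Their transcription factor list was at 0.0 to 2.55 per 10000. In picked wells with no carried gene the Paneth and goblet medians were both 16.3 per 10000. Sst (chr16:23889573-23890958, minus strand) codes for somatostatin, which inhibits the release of other hormones. Of its 2542 transcripts, 96.3% lay in 1 well of GK5a plate 3, where they were 2447 of 5191 transcripts (47.1%). That well also held 10.0 Chgb and 8.0 Sct. In all other plates together no used well held more than 8.0 Sst transcripts; a well of GK5a plate 4 held 87.9, but its total of 774 transcripts was below the limit for use.

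Sct (chr7:141278330-141279133, minus strand) codes for secretin, which triggers bicarbonate release into the gut. It was the most widely spread of the 10 genes: 467 wells (22.1%) held at least 1 transcript, 23 wells were carriers, and the carriers held 27.5% of its 1455 transcripts. The top 10 wells held 17.7% of Sct, against 66.7% of Chga, 83.6% of Gip, 92.9% of Gcg and 97.6% of Sst. The highest well held 65.5 Sct transcripts, in GK5a plate 3. Of the 23 carriers, 14 carried Sct alone and 6 also carried Chgb. Those 6 had medians of 76.4 transcripts of the transcription factor list and 6.11 of the goblet list per 10000. In the 16 that carried Sct alone or with Tac1 the medians were 0.0 and 436 per 10000, with the goblet list ranging from 16.8 to 2206.

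Genes outside the 10 were ranked by their likeness to each of the 10, so the genes named are alike by selection. Likeness was measured as Pearson's r over the 2116 wells on log2(transcripts per 10000 + 1) after subtracting each plate's mean, among 12049 genes; wells of a plate share library and depth, and the values are a description. Lmx1a, a transcription factor of serotonin-producing cells, was the gene outside the 10 most like Chga (r = 0.74), Tac1 (r = 0.63) and Tph1 (r = 0.65). For Chga and Tph1 the sodium channel Scn3a and the vesicle gene Rab3c came next. Lmx1a was at 1.0 to 16.0 transcripts in the Tac1 carriers with Chgb and at most 1.0 in those without. Within the 10, Chga was most like Chgb (r = 0.71) and Tph1 (r = 0.68). Chgb was most like Scn3a (r = 0.69), the peptide-processing enzyme Cpe (r = 0.68) and the serotonin-lineage transcription factor Fev (r = 0.68).

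Gip was most like Rbp4, a retinol carrier (r = 0.66), Fabp5, a fatty acid binding protein (r = 0.62), and Isl1, a transcription factor (r = 0.55), and its r with Chga was 0.03. Cck was most like Cpe (r = 0.69), the granin Scg2 (r = 0.63) and the transcription factor Pax6 (r = 0.62). Ghrl was most like Abcc8, a subunit of an ATP-sensitive potassium channel (r = 0.42), and Scgn, a calcium sensor (r = 0.41). Gcg was most like the transcription factor Etv1 (r = 0.44). Sct was most like Hepacam2 (r = 0.47), and its r with Cpe was 0.40. Sst, with 1 carrier, was not ranked.

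Lists of other enteroendocrine genes were compared between the 76 carriers of a gene other than Tac1 and Sct and the 1993 wells with no carried gene. Of 28 detected genes for granule contents and hormone processing, 27 had more transcripts per 10000 in the carriers, and of 19 enteroendocrine transcription factors all 19 did. Of 10 other gut hormone genes 6 did. Over all 17664 other genes seen, 5811 (32.9%) had more in the carriers. A listed granule gene was seen in a median of 25.0% of these carriers and 0.88% of the wells without a carried gene, and a transcription factor in 30.3% and 0.70%, against medians of 6.58% and 7.53% over all these genes. Over all 123 carriers, Neurod1, a factor required for several of these hormones, was seen in 49 wells, Fev in 41, Insm1, a repressor that acts early in the lineage, in 42 and Isl1 in 32. Of the granule list, Ptprn2, a protein of granule membranes, was seen in 90 wells, Ddc, which makes serotonin from its precursor, in 75, Syt7, a calcium sensor of exocytosis, in 75 and Cpe in 51. The 123 include 47 wells that carried only Tac1 or Sct. At least 1 granule gene was seen in 99.2% of the 123, 66.4% of wells without a carried gene and 90.3% of such GK5b wells. For the transcription factors these were 69.9%, 31.9% and 40.8%.

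Markers of other cells were also measured in these wells. The neuron and glia list was detected with 3 of 10 genes in the 76 carriers, and its summed level ranged from 0.0 to 8.04 per 10000 with a median of 0.0. It was seen in 20 of the 76 carriers (26.3%) and in 8.13% of the wells with no carried gene. The stroma and endothelium list was seen in 31 of the 76 carriers (40.8%) and in 3.01% of the wells with no carried gene. Its median was 10.9 per 10000 in Chga carriers, 3.99 in Chgb carriers, 42.1 in Tac1 carriers with Chgb and 49.0 in Tph1 carriers (range 17.3 to 103), and 0.0 in Tac1 carriers without Chgb. Vim, which codes for the filament protein vimentin, was seen in all 31 of those carriers with 379 transcripts, and in 7 of 7 Tph1 carriers with 294. Of the 10 listed genes 3 were seen in the 76 carriers. In the Chga, the Chgb and the Tph1 carriers and in the Tac1 carriers with Chgb, 2 were seen in each set. The part of stromal RNA in these wells was not tested. Goblet genes had a median of 17.9 per 10000 in the 76 carriers and 1024 in the 47 wells that carried only Tac1 or Sct. Paneth genes had a median of 4.94 per 10000 in the 76 carriers, with up to 2930 in a well. In wells with no carried gene their median was 3.75, with up to 3891.

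Outside carrier wells the genes were low but not absent, and plates differed widely in how low. In GK5b plate 2, 192 of the 255 wells below 10 Gip transcripts held at least 1, 438 transcripts in all, beside 1489 in the 6 carriers: 29.4 transcripts outside for every 100 inside. In GK5a plate 4, which had 2154 Gip transcripts in all, only 20 of 219 such wells held any, 22.0 transcripts or 1.03 for every 100 inside. Chgb in GK5b plate 2 had 95 transcripts in 73 of 255 such wells, 4.90 for every 100 inside. Of the 6 Gip carriers in that plate, 4 held only 10.0 to 14.0 Gip transcripts, and the highest of the wells below that level held 9.0.

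Picked plate 1 had a similar spread of Ghrl. Outside the well with 915 Ghrl transcripts, 76 of 121 wells held Ghrl, 43 held Gcg and 32 held Cck. For every 100 transcripts in that well, the others together held 32.0 Ghrl, 30.1 Gcg and 21.1 Cck. The 3 hormones with the most transcripts in that well were therefore all widespread in the plate. That well also held 16.0 Chgb and 10.0 Sct transcripts. Among wells of the plate below 10 transcripts, Chgb was seen in 7 of 120 and Sct in 22 of 121. In the other picked plates Gcg was seen in 1 of 178 and 7 of 199 wells below 10 transcripts. Sst in GK5a plate 3 had 79.0 transcripts in 55 of the 232 other wells (3.23 for every 100 in the well with the most). In GK5a plate 4, whose well with 87.9 Sst was not used, it had 7.0 in 7 of 224 used wells, at most 1.0 per well. Where these low counts came from was not tested. They bear on wells close to 10 transcripts in these plates.

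**Figure D2:**
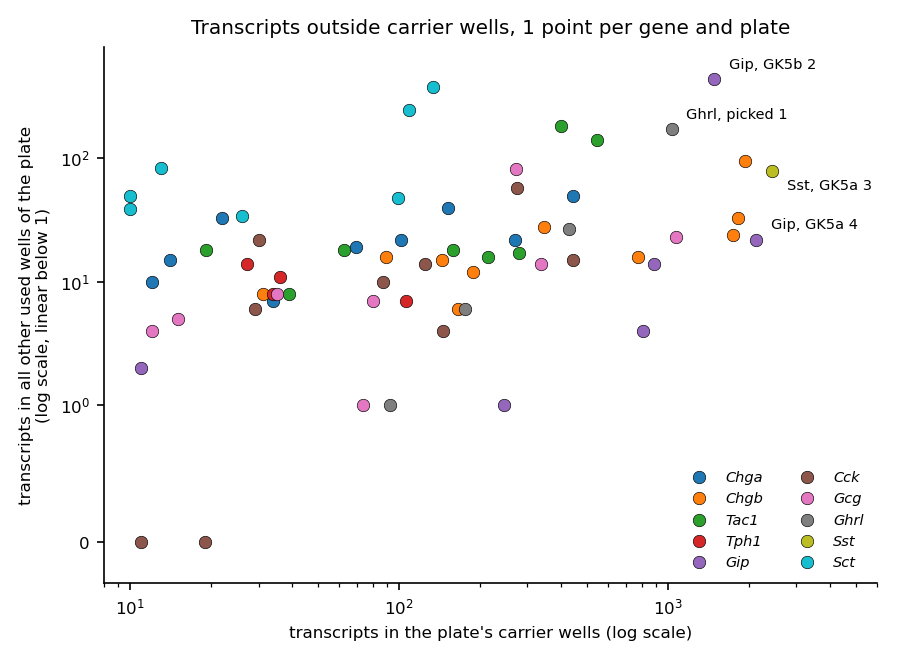
Transcripts of a gene in all other used wells of a plate (vertical, log scale, linear below 1) against its transcripts in the carrier wells of the plate (horizontal, log scale), 1 point per gene and plate with a carrier. Gip in GK5b plate 2 (438 outside, 1489 inside) and Ghrl in picked plate 1 (172 outside) lie high, and Gip in GK5a plate 4 (22.0 outside) lies low for its level inside.

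The first comparison between plates asked whether pipetted doublets and triplets differed from sorted single cells. Plate sums, scaled by TMM (trimmed means of log ratios), were tested on log2(CPM + 1) with limma, over 10427 genes. Of all tested genes 30.2% passed at an adjusted p under 0.05 (3152 genes), and 1 of the 9 tested genes of this family did: Ghrl rose in picked plates. Sst was too rare to be tested. A plate sum joins the number of wells that hold a gene with the level in each. Ghrl had 8, 0 and 3 carriers in the picked plates, against 0 and 3 in the GK5b plates and 0, 2, 0, 0 and 0 in the GK5a plates.

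Ghrl was at 980, 13.4 and 156 CPM of plate totals in the picked plates, against 0.207 and 104 CPM in the GK5b plates and 7.83, 40.9, 1.41, 1.67 and 0.424 CPM in the GK5a plates. The lowest picked plate lay below the highest GK5b and GK5a plates, so the groups overlapped. The log2 fold change was 4.65 ± 1.48 (SE, picked over sorted, limma adjusted p = 0.031). In limma the call was lost without picked plate 1 (log2 fold change 3.12, adjusted p = 0.17), without picked plate 3 (4.57, adjusted p = 0.086), without GK5a plate 3, 4 or 5 (4.29 to 4.44, adjusted p 0.053 to 0.054) and in wells with at least 2000 transcripts (2.61, adjusted p = 0.31). It was also lost with every well of each plate in the sums (4.05 ± 1.57, adjusted p = 0.068), a setting added after the data were seen. The wells under 1000 transcripts of GK5a plate 1 held 63.2 Ghrl transcripts, 35.2 of them in 1 well, against 8.0 in its used wells, so that this plate was at 66.4 CPM over all wells and 7.83 CPM over used wells.

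Gip was at 1.62, 1.22 and 6.02 CPM in the picked plates, against 0.0 and 437 CPM in GK5b and 794, 394, 6.09, 1199 and 104 CPM in GK5a plates. All picked plates lay above the GK5b plate at 0, and below every GK5a plate except that TMM scaling turned the order of the picked plate at 6.02 CPM and the GK5a plate at 6.09 CPM, to 6.61 and 5.50. The log2 fold change was -4.66 ± 1.84 (SE, limma adjusted p = 0.073), which missed the threshold; against GK5a plates alone it was -5.52 (adjusted p = 0.0065). With every well of each plate in the sums Gip passed as lower in picked plates (-5.07 ± 1.67, adjusted p = 0.036). GK5a plate 3 was then at 94.4 CPM, since 192.6 Gip transcripts lay in 3 of its wells under 1000 transcripts, against 13.0 in its used wells. The wells in use thus decided which of the genes, Ghrl or Gip, passed. Gcg was at 288, 90.8 and 74.6 CPM in the picked plates, against 8.93 and 3.63 CPM in GK5b and 13.7, 154, 0.468, 11.2 and 462 CPM in GK5a plates. Its log2 fold change of 3.05 ± 1.40 (limma adjusted p = 0.12) did not pass, with 2 GK5a plates among or above the picked ones.

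The other 6 tested genes had log2 fold changes from -1.01 (Chgb) to 1.99 (Cck), and their limma adjusted p ranged from 0.14 to 0.89. Cck was at 270, 23.2 and 83.8 CPM in picked plates, against 2.28 and 104 CPM in GK5b and 9.78, 60.8, 16.4, 29 and 63.4 CPM in GK5a plates, with overlap. Chgb was at 31.7, 194 and 173 CPM in picked plates, against 35.7 and 460 CPM in GK5b and 103, 776, 866, 208 and 334 CPM in GK5a plates, also with overlap. Of the enteroendocrine transcription factor list, 0 of 13 tested genes passed, with a median log2 fold change of -0.55, and of the granule and processing list 0 of 14, with a median of -0.10, against a median of -0.09 over all tested genes. Among other gut hormones 1 of 3 tested genes passed, Adm, which codes for adrenomedullin and was at 20.9 CPM after TMM scaling in picked and 0.37 in sorted plates. Paneth genes, which mark antimicrobial cells of the crypt base, rose in 6 of 10 tested members with a median of 2.56, and stem cell genes fell in 5 of 10 with a median of -0.70. The part of these shifts in the differences was not tested.

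**Figure D3:**
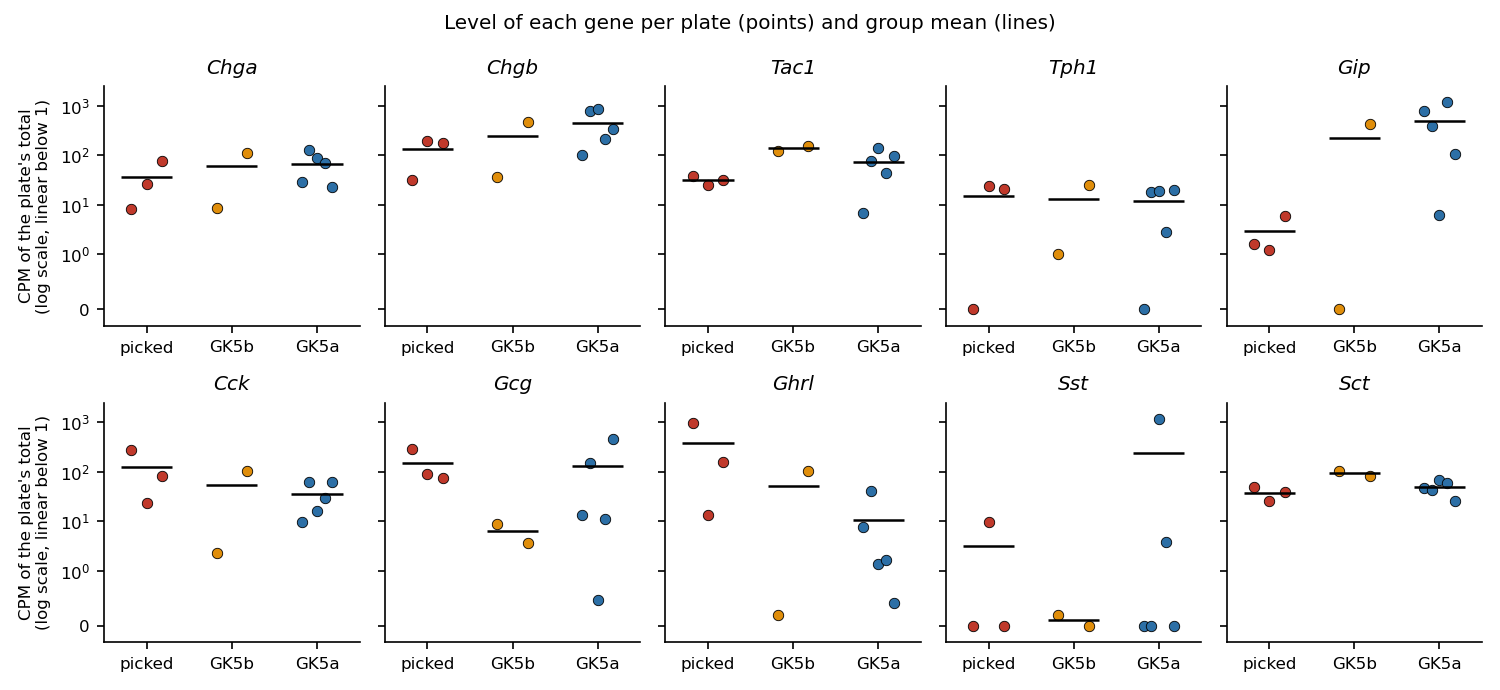
CPM of plate totals (vertical, log scale, linear below 1) of each gene in the 3 picked, 2 GK5b and 5 GK5a plates, with points for plates and lines for group means. Gip spans 0.0 to 1199 CPM over plates and Sst 0.0 to 1182 CPM, whereas Sct spans 25.4 to 106 CPM, with both GK5b points above the GK5a points.

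The second comparison set the sorted plates of the 2 experiment codes against each other. The labels do not say what separates the codes, and the plates also differed in depth and in genes of other cell types. In limma 8 of 9 tested goblet genes rose in GK5b (median log2 fold change 2.08), whereas 9 of 10 enterocyte genes fell (median -2.24), as did 3 of 8 genes of tuft cells, the chemosensory cells of the lining (median -2.30), and 2 of 10 stem cell genes, Ascl2 and Lgr5 (median -0.63). The part of these shifts in the differences between the codes was not tested. Of the enteroendocrine lists, 0 of 15 tested transcription factors passed (median -0.71). In the granule and processing list (17 tested, median 0.06) Ptprn2, Syt7 and Slc18a1, a vesicular amine transporter, rose and Ddc fell. Of 10641 tested genes 13.0% passed in limma (1385 genes), and 1 of the 9 tested genes of the family passed. Sct rose in GK5b plates, to 106 and 81.2 CPM of plate totals, against 47.9, 42.5, 68.7, 58.5 and 25.4 CPM in GK5a plates, without overlap. Its log2 fold change was 1.04 ± 0.30 (SE, GK5b over GK5a, limma adjusted p = 0.042). In limma the call was lost without GK5b plate 1 (log2 fold change 0.79, adjusted p = 0.45), GK5b plate 2 (1.29, adjusted p = 0.061), GK5a plate 1 (1.04, adjusted p = 0.055) or GK5a plate 2 (1.02, adjusted p = 0.062), and with CPM averaged over wells in place of sums (0.40, adjusted p = 0.67).

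Tac1 was at 120 and 155 CPM in GK5b plates, against 6.84, 77.2, 138, 44.8 and 97.4 CPM in GK5a plates, with GK5a plate 3 between the GK5b plates. Its log2 fold change was 1.45 ± 0.80 (limma adjusted p = 0.27). The wells behind these sums differed: GK5b plates had 34 Tac1 carriers in 525 wells, 31 of them without Chgb, and GK5a plates had 9 in 1090 wells, all 9 with Chgb. The other 7 tested genes had log2 fold changes from -3.21 (Gip) to 1.16 (Ghrl), and their adjusted p ranged from 0.355 to 0.979. The GK5b plates differed from each other: Chgb was at 35.7 and 460 CPM and Gip at 0.0 and 437 CPM. Without GK5b plate 2 the log2 fold changes were -2.471 for Chga, -3.124 for Chgb, -3.085 for Cck and -7.589 for Gip. These changes were positive without GK5b plate 1. With 1 GK5b plate left, the spread had to be taken from the GK5a plates.

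In wells with goblet genes at 5% or more of transcripts and no carried gene other than Tac1 or Sct, a limit set after the data were seen, Tac1 and Sct gave different values. Sct was at 145 and 214 CPM over these wells in GK5b plates and at 151 to 220 CPM in GK5a plates, and at 142 to 221 CPM in picked plates. In the remaining wells without another carried gene it was at 74.7 and 22.7 CPM in GK5b, 4.12 to 42.6 CPM in GK5a and 14.5 to 20.1 CPM in picked plates. Sct was higher in goblet-rich than in other wells in 10 of 10 plates.

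Tac1 in goblet-rich wells was at 247 and 384 CPM in GK5b plates, against 73.4, 45.0, 22.6, 38.9 and 6.59 CPM in GK5a plates, without overlap. Picked plates had 317, 0.0 and 18.4 CPM, from 12, 11 and 24 goblet-rich wells. The GK5b plates averaged 315 CPM and the GK5a plates 37.3 CPM, with p = 0.095 in an exact two-sided permutation test over plates, the smallest that 2 against 5 plates allow. At least 1 Tac1 transcript was seen in 41.8 and 51.7% of goblet-rich wells in the GK5b plates, and in 18.2, 17.2, 8.0, 14.3 and 3.70% in the GK5a plates. The median well had 11524 transcripts in GK5b and 4890 in GK5a goblet-rich wells. In limma on these wells the Tac1 difference of 3.39 on the log2 scale had an unadjusted p of 2.76e-04 and an adjusted p of 0.35. None of the 4372 genes passed there, and 200 had an unadjusted p under 0.05. The Sct difference was 0.04. In the remaining wells without another carried gene Tac1 was at 18.9 and 10.4 CPM in GK5b plates, against 0.0 to 3.06 CPM in GK5a plates, and passed in limma (log2 fold change 2.69 ± 0.62, adjusted p = 0.019, with 974 of 10426 genes passing). Sct did not pass there (1.39 ± 0.64, adjusted p = 0.21). Goblet-rich wells were 60.3 and 35.2% of wells in the GK5b plates and 11 to 13.2% in the GK5a plates.

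**Figure D4:**
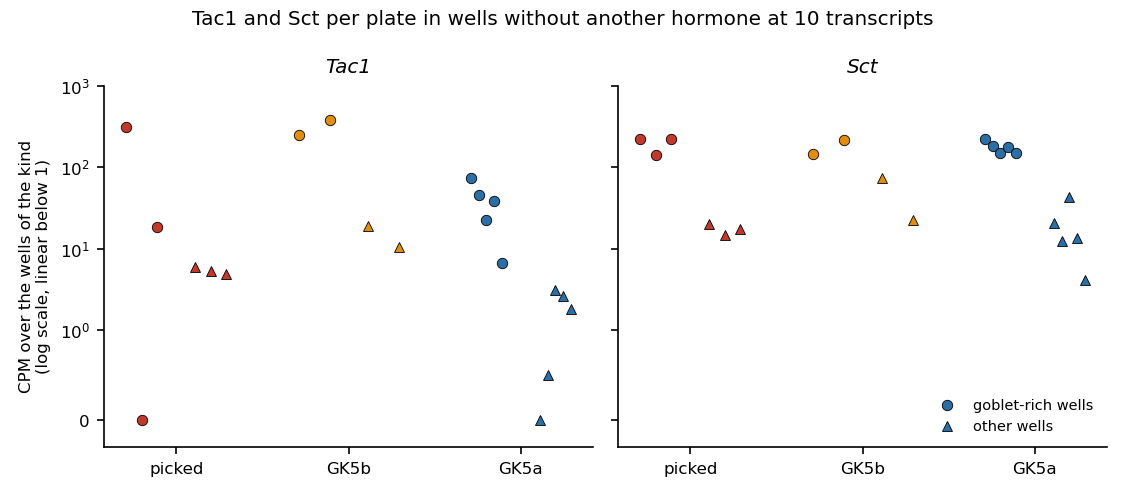
CPM of Tac1 (left) and Sct (right) per plate (log scale, linear below 1) over goblet-rich wells (circles) and other wells (triangles) without another carried gene, for picked, GK5b and GK5a plates. Sct circles lie between 142 and 221 CPM in all groups, whereas the Tac1 circles of GK5b (247 and 384 CPM) lie above those of GK5a (6.59 to 73.4 CPM).

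The share of wells that carried any of the 10 genes was also compared over plates, with exact 95% binomial intervals that cover counting error only. Picked plates had 9.02% (4.59 to 15.6), 3.91% (1.59 to 7.89) and 3.50% (1.42 to 7.08) carriers. GK5b plates had 12.1% (8.44 to 16.7) and 10.3% (6.93 to 14.7). GK5a plates ranged from 3.00% (1.22 to 6.09) to 4.78% (2.41 to 8.40). Picked plates averaged 5.48% ± 3.07 (SD, n = 3) against 5.75% ± 3.82 (n = 7) for sorted plates, with p = 0.82 in an exact two-sided permutation test over plates. A picked well holds 2 or 3 cells and a sorted well 1, so these are shares of wells and not of cells.

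GK5b plates averaged 11.2% ± 1.26 carriers (SD, n = 2) and GK5a plates 3.56% ± 0.71 (n = 5), without overlap. The exact two-sided permutation p was 0.095, the smallest that 2 against 5 plates allow. Without Tac1 and Sct the GK5b plates had 0.76% and 5.36% and the GK5a plates 2.58 to 4.78%, and the difference of -0.31 percentage points had p = 0.86 in the same exact test. Where a gene had to make up at least 0.5% of the well's transcripts, GK5b plates averaged 1.91% and GK5a plates 3.17%, and with every well thinned to 1000 transcripts and at least 5 of a gene they averaged 1.91% and 3.28%. Of the 59 GK5b carriers, 43 carried only Tac1 or Sct, against 2 of the 39 GK5a carriers.

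**Figure D5:**
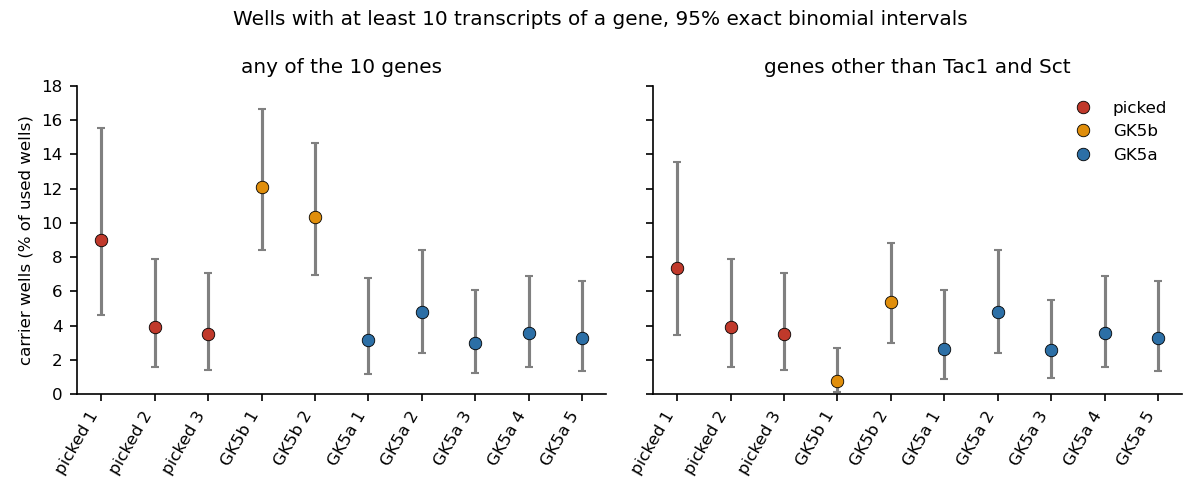
Percent of used wells that carried a gene at 10 or more transcripts in each plate, for any of the 10 genes (left) and for genes other than Tac1 and Sct (right), with exact 95% binomial intervals. GK5b plates are at 12.1% and 10.3% on the left, above every GK5a plate, and at 0.76% and 5.36% on the right.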

How the data were processed

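Transcripts were measured with CEL-seq2 in 10 plates of 384 wells, 3 picked and 7 sorted. The submitters' processing notes name BWA 0.6.2-r126 and the build mm10. The sources used here give neither the counting program nor whether it used strand. Values deposited by the authors, whose unit was recorded as other, are molecule estimates per gene and well, not normalized: 100% map back to whole barcode counts within 0.001 under a correction for shared barcodes. No count model was run; limma on the recovered whole counts is among the alternatives. Spike-ins (85 species) were left out, a gene missing from a plate's table was counted as 0, and no doublets were removed, since the picked wells hold doublets or triplets by design.

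Sums of the deposited values over used wells were scaled by TMM on the genes that passed the filter (factors 0.756 to 1.11 with all plates) and tested with limma 3.58.1 (lmFit, eBayes with trend) in R 4.3.3 on log2(CPM + 1), with Benjamini-Hochberg adjustment over all genes. A gene needed 10 transcripts at the median plate size in 3 plates (2 for GK5b against GK5a) and 15 in total. On this scale the change of low genes is understated. Shares of wells were compared by exact permutation over plates (Python 3.11.15, scipy 1.17.1). The fit was tested on simulated data. Positions are from GENCODE on GRCm38 and promoter sequences from RefSeq. The genes, lists and limits were chosen with earlier results of these data known. All 10 genes are named, as are, for each with at least 5 carriers, the most alike genes seen in at least 20 wells, and the 4 with the most transcripts in carriers from the lists of other hormones, granule genes and transcription factors. The alternatives tried are given in the closing section.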

Additional observations from a re-analysis of the deposited data

Results flagged for a closer look

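Among 22 groups of plate values tested for an outlying plate, 5 had 1. The groups overlap, since the GK5a plates are also among the sorted plates, and Sst in GK5a plate 3 counts in both. How many flags would arise by chance in values that rest on single wells was not tested. GK5a plate 2 stood apart for Ghrl at 40.9 CPM, against 0.424 to 7.83 CPM in the other GK5a plates. Among all sorted plates, GK5b plate 2 stood apart for Ghrl at 104 CPM (others 0.207 to 40.9 CPM) and GK5a plate 5 for Gcg at 462 CPM (others 0.468 to 154 CPM), where a single well held 97.9% of the plate's Gcg transcripts. GK5a plate 3 stood apart for Sst at 1182 CPM among both GK5a and all sorted plates (others 0.0 to 3.90 CPM), and 96.9% of that came from 1 well.

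The wells under 1000 transcripts entered only the setting with every well of each plate. They also held the 10 genes, in each case more than the 3 transcripts that a count of 0 allows. They held 38.0 transcripts of Chga, 250.6 of Chgb, 38.0 of Tac1, 11 of Tph1, 40.1 of Cck, 456.9 of Gip, 85.2 of Ghrl, 24.0 of Sct, 84.2 of Gcg and 127.9 of Sst. Some of these exceeded what the used wells of a plate held: GK5a plate 3 had 192.6 Gip transcripts in such wells, against 13.0 in used wells, GK5a plate 1 had 63.2 Ghrl, against 8.0, and 35.1 Gcg, against 14.0, and GK5a plate 4 had 89.9 Sst, against 7.0. The most in a single such well was 135 for Gip, 87.9 for Sst, 39.2 for Chgb, 35.2 for Ghrl and 34.1 for Gcg.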

How the results depend on the processing

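Between picked and sorted plates, 1 gene passed in limma (Ghrl). Library totals in place of TMM gave 2 (Gip and Ghrl), with 4309 of 10427 genes passing and a median over all genes of -0.40. No filter on low sums gave 0 (3225 of 17743 genes passing) and wells with at least 2000 transcripts 0 (3011 of 10411). Every well of each plate gave 1, Gip in place of Ghrl (3227 of 10493). GK5a alone gave 2, Gip and Ghrl (3235 of 9866), and GK5b alone 2, Tac1 and Gcg (1459 of 8922). Leaving out 1 plate gave 0 to 2, with 2439 to 3214 genes passing. Ghrl stayed above 0 under all 20 alternatives (2.61 to 6.29, adjusted p 0.0094 to 0.31) and passed in 11. Gip ranged from -5.74 to -4.03 (19 alternatives, adjusted p 0.0047 to 0.19) and passed in 5.

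Between GK5b and GK5a plates, 1 gene passed (Sct): no filter gave 0, the mean of CPM per well 0, leaving out the top well of each gene and plate 2 (Tac1 and Sct), goblet-rich wells alone 0, wells that were not goblet-rich 1 (Tac1 in place of Sct), every well of each plate 1 (Sct), and leaving out 1 plate 0 to 4. Sct ranged from 0.04 to 1.39 (adjusted p 0.0051 to 1.00) and passed in 9 of 17.

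The difference in percent of carrier wells between picked and sorted plates was -0.28 points; it turned to 0.29 with the 0.5% rule, 1.65 without Tac1 and Sct and 1.92 against GK5a alone, and ranged from -2.05 to 0.78 with 1 plate left out. GK5b minus GK5a was 7.67 points; it turned to -1.26 with the 0.5% rule, -1.37 with thinning and -0.31 without Tac1 and Sct, and ranged from 6.78 to 8.56 with 1 plate left out. Splits by goblet genes, every well of each plate and the shares without Tac1 and Sct were added after seeing the data. The cause of the shifts was not tested.

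Log2 fold changes of genes that did not pass also turned sign. Picked over sorted, Chga was 0.015 against GK5b alone, Tph1 -0.09 and Cck -0.235 in wells with at least 2000 transcripts and Sct 0.058 against GK5a alone; with 1 plate left out Chga ranged from -1.25 to 0.172, Tph1 from -0.601 to 1.82 and Sct from -0.568 to 0.01. GK5b over GK5a, Tph1 was 0.472 with the mean of CPM per well, Cck 0.049 in wells with at least 2000 transcripts and Gip 1.279 outside goblet-rich wells; with 1 plate left out Chga ranged from -2.471 to 0.982, Chgb from -3.124 to 0.409, Tph1 from -1.897 to 1.742, Cck from -3.085 to 1.815, Gip from -7.589 to 1.157 and Ghrl from -2.044 to 4.353. No paired analysis was possible because the labels give the groups no shared replicate numbers. Limits: counts of 122 to 264 wells per plate, 2 GK5b plates, and genes whose sums rest on single wells.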

Other observations

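Of the other gut hormones, Pyy and Iapp lay in wells that carried some of the 10 genes, and Nts also in one that carried none. Pyy, which codes for the satiety peptide PYY, had 549 transcripts in the well with 1068 Gcg transcripts, 98.2 in the well with 2447 Sst transcripts and 21.1 in the picked well with 915 Ghrl transcripts. These were its only wells with at least 10 transcripts. The Sst well also held 41.2 transcripts of Iapp, which codes for amylin.

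Nts, which codes for neurotensin, had 3 wells with at least 10 transcripts, all in GK5a plates. The well with the most held 617 Nts transcripts, 9.08% of its total, and none of the 10 genes at 10 transcripts: its highest was Gcg at 7.0. A well of GK5a plate 3 held 193 Nts and 65.5 Sct transcripts, the highest Sct count of any used well, and a well of GK5a plate 4 held 21.1 Nts beside 15 Gcg and 15 Cck.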
